A study of Mus musculus with 18 samples.

Results

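The sites examined were the KAP1 peaks of Hepa 1.6 cells, a mouse hepatoma line, set against the H3K27ac peaks of wild-type (WT) mouse embryonic fibroblasts (MEFs). All KAP1 peaks on the 19 autosomes were taken, which left 13143 of the 13366 peaks of the list, and they were compared with 35402 autosomal H3K27ac peaks. The question was how far KAP1 sites mapped in one cell type fall in chromatin that is active in another. A peak was called acetylated when it shared at least 1 bp with an H3K27ac peak of WT MEFs, proximal when it lay within 1 kb of a transcript start in the GENCODE annotation of the mouse assembly mm9, and distal otherwise.

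KAP1, also called TRIM28, has no sequence preference of its own. It is brought to DNA by KRAB zinc finger proteins and recruits the H3K9 methyltransferase SETDB1 and HP1 proteins, which leads to H3K9me3, a mark of silent chromatin. H3K27ac marks active promoters and enhancers, and KAP1 has also been found at transcribed promoters, where its part is less clear. Hepa 1.6 cells carried no edit according to the labels and are listed with the C57L background. The MEFs are listed with the C57BL/6 background, and the WT MEFs are the Kap1 loxP/loxP cells that were not excised, the counterparts of the Kap1 KO MEFs. Further peak lists were used beside them: SETDB1 in Hepa 1.6, H3K9me3 in WT MEFs, and H3K27ac in Kap1 KO MEFs. Each list came from 1 library, so no spread between replicates can be given, and their depth is unknown here. The 2 cell types differ in tissue, strain and transformation, and these differences cannot be told apart. Ranges in parentheses are exact 95% confidence intervals by the Clopper-Pearson method and hold counting error alone.

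The MEF label was checked on marker genes. Of 32 fibroblast genes, 27 had H3K27ac within 1 kb of a start, against 5 of 38 hepatocyte genes, 5 of 15 blood and endothelial genes, 0 of 20 pluripotency and germline genes and 55.2% of all protein-coding genes. No mark of activity in Hepa 1.6 cells was analysed here, so their label was not checked in this way.

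The sequences at the middle of 4 KAP1 peaks show what kinds of sites the list held. The first 3 come from 3 of the 4 classes formed by position and acetylation, each from a peak of the highest score in its class whose central 200 bases hold no annotated UTR. For the first pair of these that score, 3100, is shared by 21 and 91 peaks of the class, and the first in chromosome order was taken. The last belongs to the highest-scoring distal acetylated peak with a score under 1000, an AP-1 motif and no B box motif, which was chosen after values were seen. Capitals mark letters of the motifs described further on.
Gm9947 and Msc start, without H3K27ac, mm9 chr1:14745547-14745746, plus strand: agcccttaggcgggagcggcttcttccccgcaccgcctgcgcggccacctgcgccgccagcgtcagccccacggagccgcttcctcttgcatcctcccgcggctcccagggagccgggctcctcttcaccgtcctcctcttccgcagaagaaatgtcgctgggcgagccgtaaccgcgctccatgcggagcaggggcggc
AC106841.1 neighbour, distal with H3K27ac, mm9 chr1:34491581-34491780, plus strand: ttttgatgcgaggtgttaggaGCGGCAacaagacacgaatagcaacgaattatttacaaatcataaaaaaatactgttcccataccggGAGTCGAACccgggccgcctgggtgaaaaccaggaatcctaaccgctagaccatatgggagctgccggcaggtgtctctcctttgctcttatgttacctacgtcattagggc
Cdh15 exon, distal without H3K27ac, mm9 chr8:125389240-125389439, plus strand: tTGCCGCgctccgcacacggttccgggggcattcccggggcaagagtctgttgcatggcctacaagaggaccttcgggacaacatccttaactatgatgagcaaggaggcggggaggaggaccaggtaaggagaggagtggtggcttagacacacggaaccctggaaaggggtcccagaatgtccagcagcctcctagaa
Pip5k1a neighbour, distal with H3K27ac, mm9 chr3:94870717-94870916, plus strand: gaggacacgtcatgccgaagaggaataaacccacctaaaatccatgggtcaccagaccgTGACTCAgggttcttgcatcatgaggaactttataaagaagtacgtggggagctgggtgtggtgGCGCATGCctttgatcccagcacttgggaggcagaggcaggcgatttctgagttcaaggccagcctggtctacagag
The second window holds the capitals GAGTCGAAC, a match on the minus strand to GTTCGANNC, the core of the B box that recruits TFIIIC inside tRNA genes, which RNA polymerase III transcribes, and the capitals GCGGCA. In the Cdh15 window, the capitals TGCCGC are the motif of the KRAB zinc finger protein ZFP57. The Pip5k1a window holds TGACTCA, a form of the AP-1 motif.

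Of the 13143 KAP1 peaks, 4915 were acetylated, or 37.4% (36.6% to 38.2%). Shuffled within their chromosome 10000 times, the KAP1 peaks met H3K27ac 634.7 times on average and never more than 719 times, a 7.74-fold excess (permutation test, one-sided, p = 0.0001, the lowest that so many shuffles allow). WT MEF H3K27ac covered 3.41% of autosomal bases. The overlap was far from even. KAP1 peaks near a transcript start were mostly acetylated, with 3500 of 4252, or 82.3% (81.1% to 83.5%), whereas distal peaks were acetylated in 1415 of 8891 cases, or 15.9% (15.2% to 16.7%). Shuffles gave 216.0 and 418.8 such peaks, and the observed numbers were 16.2-fold and 3.38-fold these means (one-sided permutation p = 0.0001 for both). The proximal peaks made up 32.4% of all KAP1 peaks and 71.2% of the acetylated ones. Since shuffled peaks rarely fall at a start, the fold of the proximal class compares starts with whole chromosomes. It was 10.7-fold when an H3K27ac peak within 1 kb was accepted, which is still a comparison with whole chromosomes. Genes with and without KAP1 at a start are compared further on.

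**Figure D1:**
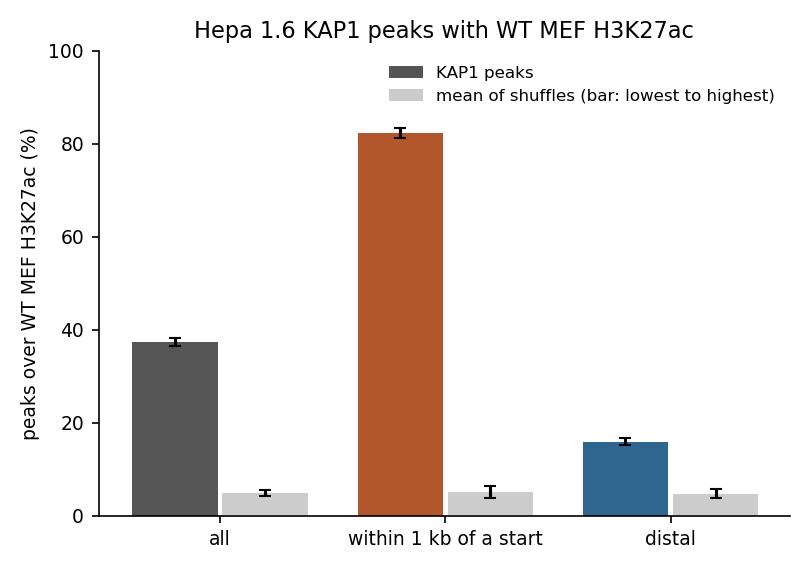
Share of Hepa 1.6 KAP1 peaks (y axis, percent) that share at least 1 bp with a WT MEF H3K27ac peak, for all autosomal peaks, those within 1 kb of a transcript start and the distal ones. Coloured bars carry 95% confidence intervals and grey bars are the mean of 10000 shuffles with their lowest and highest value; the observed 37.4%, 82.3% and 15.9% lie above all shuffles.

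The excess was present on all 19 autosomes (permutation test on each, Benjamini-Hochberg adjusted over the 19). For distal peaks it passed the test on 18 of them, and on chromosome 9 it did not, with 14 of 219 distal peaks acetylated against 9.73 expected (adjusted permutation p = 0.107). Chromosomes 9, 12, 14 and 16 stood apart from the rest in the density of KAP1 peaks. They held between 2.03 and 2.63 KAP1 peaks per Mb, while the other chromosomes held between 4.51 and 9.38. On the same 4 chromosomes between 6.39% and 8.74% of distal peaks were acetylated, against 10.2% to 25.1% elsewhere. H3K27ac itself covered 2.35% to 3.45% of the bases of these 4, and 1.97% to 5.81% elsewhere. Relative to shuffles, the distal fold was 1.44 to 2.85 on the 4 and 2.57 to 4.39 elsewhere, so these ranges overlap. Chromosome 11, with the most KAP1 peaks per Mb, had 47.0% of its peaks at starts, and chromosome 12, with the fewest, 17.1%. The part of the number of chromosome copies in Hepa 1.6 cells was not tested.

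Acetylation followed the distance to the nearest transcript start. Among the 3494 KAP1 peaks that covered a start, 87.6% were acetylated, and among the 758 that lay between 1 and 1000 bp away, 58.2%. The share was 28.0% from there to 5000 bp, 17.4% up to 20000 bp, 13.2% up to 100000 bp and 5.45% beyond (4.26% to 6.84%).

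Acetylated proximal KAP1 peaks sat inside broader H3K27ac regions. Of them, 91.7% lay entirely within H3K27ac, and of the acetylated distal peaks 71.7%. The middle of the KAP1 peak itself was under H3K27ac in 80.8% of proximal and 14.4% of distal peaks. At a distance of 10 kb upstream in genome coordinates, 9.10% of proximal and 6.88% of distal peaks met H3K27ac. Among the distal peaks without acetylation, the closest H3K27ac peak was 27760 bp away at the median, 299 of 7476 lay within 1000 bp of one, and 24.96% lay more than 100 kb from any.

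**Figure D2:**
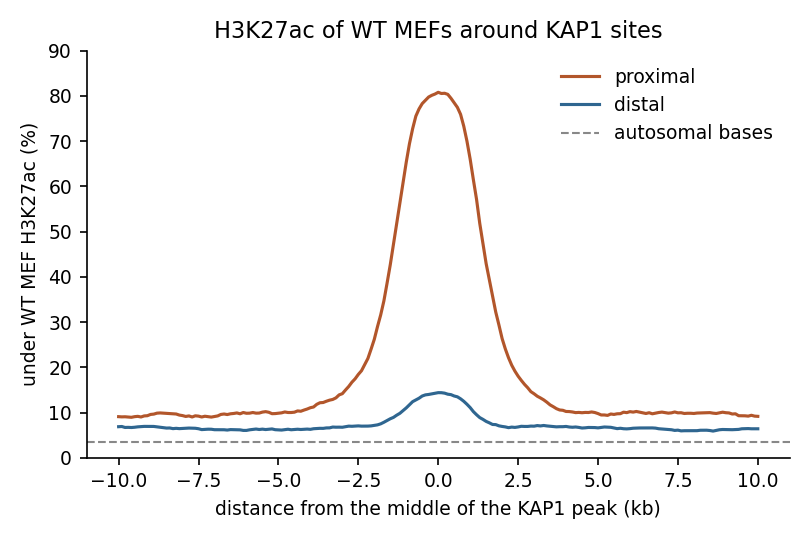
Share of KAP1 sites (y axis, percent) whose position at a given distance from the middle of the peak (x axis, kb) lies under WT MEF H3K27ac, for proximal and distal sites. Both curves peak at the middle, at 80.8% and 14.4%, and the dashed line is the 3.41% of autosomal bases under H3K27ac.

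Seen from genes, KAP1 was found within 1 kb of a start of 4204 of 21418 protein-coding autosomal genes. H3K27ac was present at 3804 of these, or 90.5% (89.6% to 91.4%), against 46.6% of the 17214 without KAP1 and 55.2% of all. Over all 34653 annotated autosomal genes the shares were 87.0% with KAP1, 32.8% without and 40.6% in all. Conversely, 32.2% of the protein-coding genes acetylated in MEFs carried KAP1 in Hepa 1.6 cells. Genes were called acetylated when H3K27ac lay within 1 kb of any of their starts. KAP1 and H3K27ac can thus lie at different starts of a gene, and the number of starts per gene was not adjusted for.

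Of 76 genes named as ribosomal protein genes, 45 carried KAP1 within 1 kb of a start, or 59.2%, against 19.6% of all protein-coding genes. All 45 were acetylated in MEFs, as were 72 of the 76 genes of the list. Rps29 carried the highest KAP1 score (3100), followed by Rps20 (579), Rps19 (501), Rps21 (434), Rpl27 (382), Rpl37 (372), Rps18 (315) and Rpl18 (310). Of 15 genes of the KAP1 machinery, 4 carried KAP1 within 1 kb of a start, or 26.7%, next to the 19.6% of all protein-coding genes. Cbx5 and Cbx3, which encode HP1 proteins, Atf7ip, a partner of SETDB1, and Uhrf1, which binds hemimethylated DNA, had KAP1, with scores of 355, 226, 321 and 103. All 15 genes were acetylated, against 55.2% of protein-coding genes.

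Genes of cell identity carried KAP1 less often than the 19.6% of all protein-coding genes, in 2.63% of the hepatocyte, 9.38% of the fibroblast, 6.67% of the blood and endothelial and 10.0% of the pluripotency and germline genes, and these lists are small. In Hepa 1.6 cells, KAP1 was found at 1 of 38 hepatocyte genes, Cebpa, a transcription factor of liver and fat, with a KAP1 score of 146 and an H3K27ac score of 118 in WT MEFs. Of the 32 fibroblast genes, 3 had KAP1, and these were acetylated: Fn1, which encodes fibronectin (KAP1 score 138), Twist1 (118) and Prrx1 (83), both transcription factors of mesenchyme. Among blood and endothelial genes 1 of 15 had KAP1, the macrophage gene Cd68, with a score of 87. In the pluripotency and germline list Sox2 had a KAP1 score of 1442 and Stag3, a meiotic cohesin subunit, a score of 169, neither with H3K27ac, and H3K9me3 was present at Sox2 with a score of 107. Of 1081 olfactory receptor genes 2 had KAP1, Olfr94 and Olfr750, and neither was acetylated.

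Imprinting control regions are bound by ZFP57 and KAP1 on the methylated parental copy, while the other copy can be active. KAP1 was found at 18 of 25 imprinted genes, or 72.0%, against 19.6% of all protein-coding genes, with scores of at least 1000 at 14 of them, and 13 of the 18 were acetylated in WT MEFs, as were 3 of the 7 without KAP1. The 72.2% of the 18 lies below the 90.5% of protein-coding genes with KAP1. At Inpp5f, Mcts2, Nespas, Plagl1, Snrpn and Zrsr1 both KAP1 scores of 3100 and H3K27ac were found within 1 kb of a start. Their H3K27ac scores lay between 316 at Plagl1 and 3100 at Zrsr1. H3K9me3 was also present in WT MEFs at Inpp5f, Mcts2, Nespas and Plagl1. Mest, Nap1l5 and Nnat had KAP1 scores of 3100 and H3K9me3 without H3K27ac. The other genes with KAP1 and no acetylation were Cdkn1c and Igf2. Peak lists do not separate the parental copies, so it cannot be told whether both marks were on the same allele. KAP1, H3K27ac and H3K9me3 were each sought over all starts of a gene and can lie at different starts.

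Genes named Zfp had KAP1 at their starts about as often as other genes. Of 337 annotated Zfp entries, 71 had KAP1 at a start, or 21.1%, next to 19.6% of all protein-coding genes, and 67 of these were acetylated, or 94.4%, next to 90.5%. Zfp664 is annotated as 2 of these entries with the same values, so the counts by symbol are 70 and 66. Of the whole list 273 were acetylated. Among the 71 entries with KAP1, those without acetylation were Zfp930, Zfp648, Zfp125 and Zfp950. The highest KAP1 scores were at Zfp316 and Zfp865 (3100 each), Zfp768 (1899), Zfp930 (801), Zfp648 (687), Zfp408 (486), Zfp532 (442) and Zfp146 (436). Zfp316 had H3K27ac and H3K9me3 within 1 kb of its starts, with scores of 3100 and 3087. Away from starts, of 58 distal KAP1 peaks over Zfp exons, 2 were acetylated, or 3.45% (0.420% to 11.9%), and 29 were under H3K9me3. Of 510 distal peaks over other exons, 23.5% were acetylated, and of 67 proximal peaks over Zfp exons 83.6%, next to 82.3% of all other proximal peaks.

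**Figure D3:**
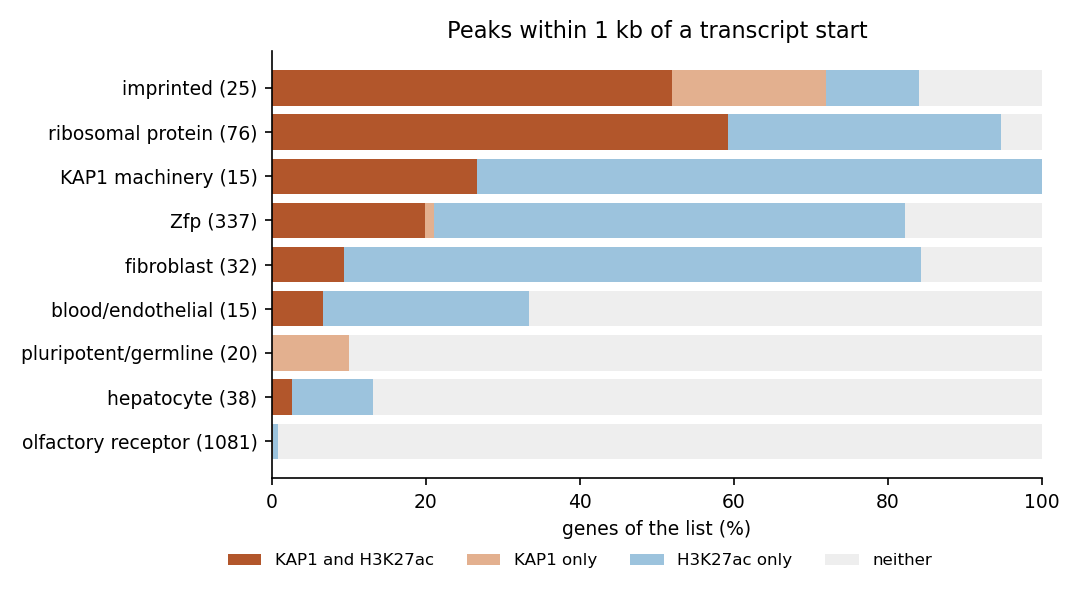
Genes of each list (y axis, with the number of autosomal genes matched) by whether a Hepa 1.6 KAP1 peak, a WT MEF H3K27ac peak, both or neither lay within 1 kb of a transcript start (x axis, percent of the list). Both marks are frequent in the ribosomal protein (45 of 76) and imprinted (13 of 25) lists and rare in the hepatocyte list (1 of 38).

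Among proximal KAP1 peaks, the strongest were less often acetylated than the weaker ones. With the proximal peaks ranked by score in 4 groups of equal size, the 3 lower groups were acetylated at 86.1%, 85.8% and 87.3%, and the highest group at 70.1%. At scores of at least 1000, 172 of 301 proximal peaks were acetylated, or 57.1% (51.3% to 62.8%). The gene types at these starts differed. Where the closest start belonged to a protein-coding gene, 3314 of 3837 peaks were acetylated, or 86.4%. At rRNA genes the median KAP1 score was 1808, and 7 of 53 peaks were acetylated. Of these peaks, 50 lay on chromosome 8 of mm9 between 126062093 and 126148001, in an array of genes annotated as rRNA, and 6 of them were acetylated. Copies of such arrays are nearly identical, so the position of reads among them is uncertain. At small nuclear RNA genes the median KAP1 score was 1123, and 31 of 41 peaks were acetylated.

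The named proximal peaks are the first in chromosome order of many that share a score. The score of 3100 was held by 64 acetylated proximal peaks and by 21 proximal peaks without acetylation. With acetylation, high KAP1 scores were found at U2 on chromosome 11 (3192), Obsl1, Gm13421 with U6atac, and 4930555B11Rik with BB557941 (3100 each). U2 and U6atac are small nuclear RNAs of the spliceosomes. Their H3K27ac scores ranged from 489 at U2 to 3100 at Obsl1 and Gm13421. Without acetylation, peaks with a score of 3100 were found at Gm9947 with Msc, Gm10222, Spata3, Fcgr3 and Blcap with Nnat. All of these peaks were in the SETDB1 list, and those at Msc, Spata3, Fcgr3 and Blcap were also under H3K9me3 of WT MEFs, with scores between 51.6 and 864. At Gm10222, 91.1% of the 31-base words of the peak were also found in the mitochondrial genome, so that reads from either place could be counted there.

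Distal peaks did not show that fall with score, and their 4 score groups were acetylated at 17.1%, 15.7%, 14.9% and 15.9%. At scores of at least 1000, however, 131 of 382 distal peaks were acetylated, or 34.3% (29.5% to 39.3%). Of the distal peaks with such scores, 67 had a B box motif at their middle and 52 of these were acetylated, or 77.6% (65.8% to 86.9%), against 79 of 315 without the motif, or 25.1% (20.4% to 30.2%). At lower scores the shares were 21.1% with and 14.97% without. The B box was searched after the printed sequences had been seen, and tRNA genes are not among the annotated autosomal genes, so a peak at a tRNA gene can count as distal. A stretch of chromosome 13 between 21 and 24 Mb, chosen after its values were seen, held 43 distal KAP1 peaks with scores of at least 1000, of which 35 were acetylated and 23 held the motif. Without all peaks that hold the motif, the distal fold was 3.26 and the share 15.3%.

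A score of 3100 was held by 91 distal peaks with acetylation and 31 without, and those named come first in chromosome order. Those with acetylation had AC106841.1, Mdm4, Mpzl1 and, for a pair of peaks, U1 as closest start, 1177, 8159, 6514, 5391 and 8592 bp away. The distal peaks without acetylation were led by the Cdh15 peak, with a KAP1 score of 3168, an H3K9me3 score of 758 and the SETDB1 list among its overlaps. It lies over an exon of Cdh15, which encodes a cadherin of muscle, 16825 bp from the nearest start. The next had scores of 3100 and their closest starts at Glrx2, Fcgr3, U5 and Gm14465.

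Motifs were searched on both strands in the 300 bp around the middle of each peak: TGCCGC (ZFP57), TGANTCA (AP-1, the dimers of FOS and JUN), CCGGAAG (ETS factors), TGACGTCA (CREB and ATF), GCGCATGC (NRF1), AAGATGGCG (YY1) and GTTCGANNC (B box). None of these contains another. A match is a description and not a binding site. No annotation of repeats was used, so how many matches lie in copies of the same repeat was not examined. Acetylated and other KAP1 peaks differed in their letters. The ZFP57 motif was found in 35.3% of distal peaks without acetylation (34.2% to 36.4%), in 10.3% of those with it (8.78% to 12.0%) and in 1.86% of all autosomal windows of the same length. The AP-1 motif showed the reverse, with 37.2% of the acetylated distal peaks (34.7% to 39.8%), 13.7% of the others (12.9% to 14.5%) and 8.87% of all windows. At proximal acetylated peaks the ETS motif was found in 22.2%, against 3.32% of proximal peaks without acetylation and 0.867% of all windows. The B box motif was found in 6.15% of acetylated distal peaks, 1.95% of the others and 1.27% of all windows. A match to it alone does not place a peak at a tRNA gene. The YY1 motif was found in 3.59% of distal peaks without acetylation and in 3 of the 1415 with it. At starts the order was the reverse for YY1, with 3.51% of acetylated and 1.06% of other peaks, and AP-1 was found in 5.97% and 7.45%.

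Read the other way, 146 of 2785 distal peaks with the ZFP57 motif were acetylated, or 5.24%, against 20.8% of those without it. For the AP-1 motif the shares were 34.0% of 1548 peaks with it and 12.1% of those without, and for the YY1 motif 3 of 271 and 16.4%. Among the 802 proximal peaks with the ETS motif, 96.9% were acetylated, against 78.9% of the others. The G+C content was 62.4% at acetylated proximal peaks and 59.0% at other proximal ones, 50.6% at acetylated distal peaks and 47.8% at other distal ones, and 41.9% over all windows, and this difference was not adjusted for in the motif shares.

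**Figure D4:**
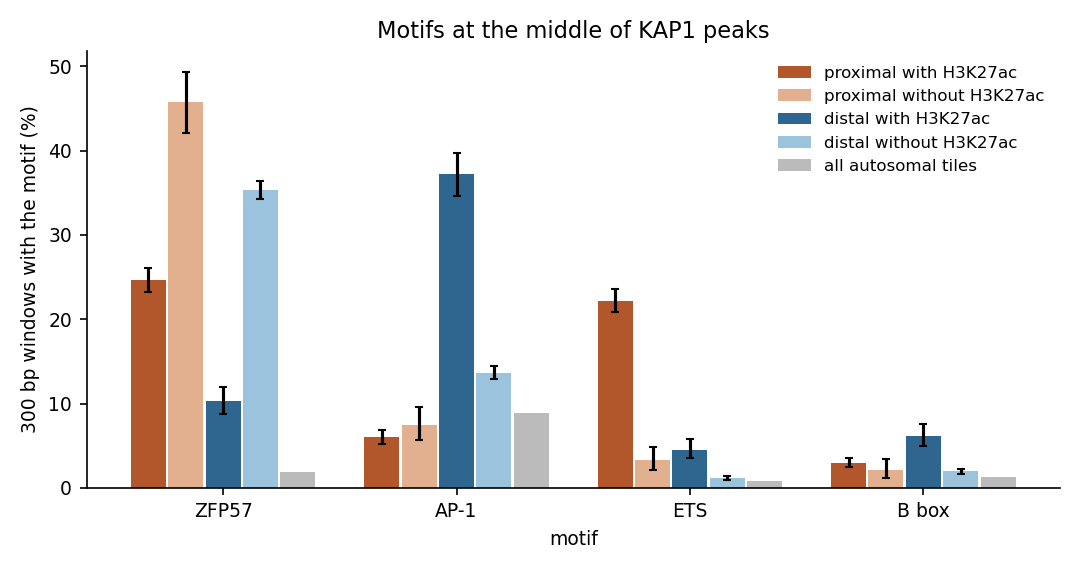
Share of 300 bp windows at the middle of KAP1 peaks (y axis, percent, with 95% confidence intervals) that hold each of 4 motifs (x axis), for the 4 classes of peaks and for all autosomal windows of that length, which carry no interval. Among distal peaks, the ZFP57 motif is found in 35.3% without and 10.3% with H3K27ac, and the AP-1 motif in 13.7% and 37.2%.

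KAP1 peaks that were also SETDB1 peaks were less often acetylated. All SETDB1 entries are also KAP1 entries, so this is a division of the KAP1 list. Of the 2346 distal peaks in the SETDB1 list, 5.63% were acetylated (4.73% to 6.64%), against 19.6% of the 6545 others (18.7% to 20.6%). At starts the shares were 51.3% of 497 and 86.4% of 3755. SETDB1-listed distal peaks held the ZFP57 motif in 56.1% of cases and the AP-1 motif in 3.84%, while the others held them in 22.4% and 22.3%.

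H3K9me3 and H3K27ac of WT MEFs were seldom found at the same KAP1 site, and many sites had neither. H3K9me3 was present at 233 of 4252 proximal peaks, or 5.48%, and at 1613 of 8891 distal ones, or 18.1%. Among acetylated peaks it was found at 0.829% of proximal and 2.26% of distal ones, and among the others at 27.1% and 21.2%. Of the distal peaks under H3K9me3, 32 were acetylated, or 1.98% (1.36% to 2.79%), against 1383 of the 7278 others. Neither mark was found in WT MEFs at 5895 distal and 548 proximal KAP1 peaks.

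**Figure D5:**
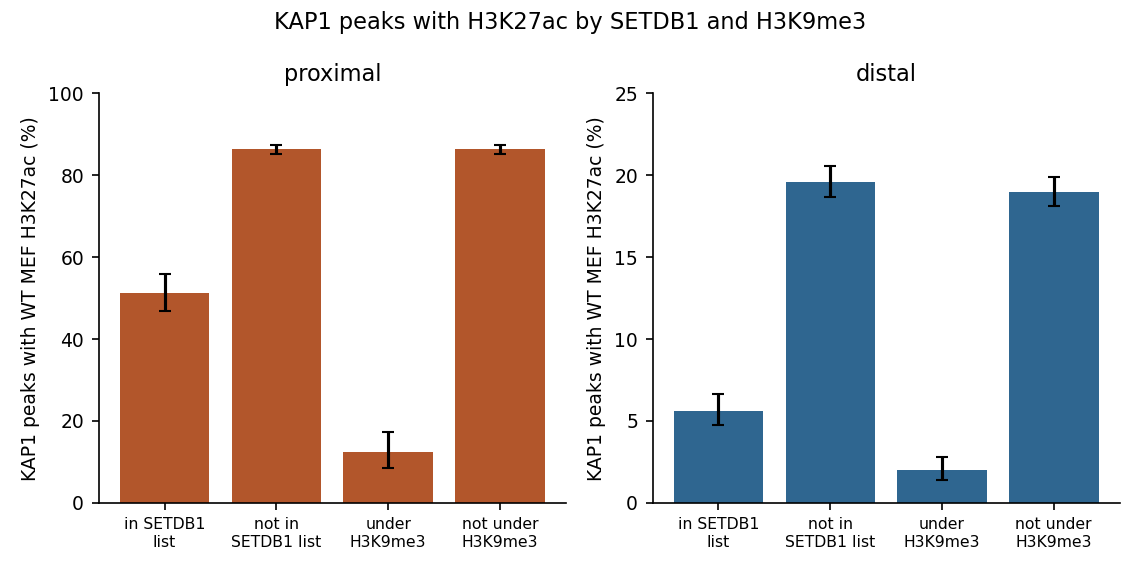
Share of KAP1 peaks acetylated in WT MEFs (y axis, percent, with 95% confidence intervals; the scales differ), divided by presence in the SETDB1 list of Hepa 1.6 or under H3K9me3 of WT MEFs, for proximal (left) and distal (right) peaks. Distal peaks in the SETDB1 list were acetylated at 5.63% and those outside it at 19.6%.

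In Kap1 KO MEFs, H3K27ac was found at a similar number of proximal KAP1 sites and at more distal ones. At starts, 3456 peaks were acetylated in the KO, of which 3410 were acetylated in both genotypes, 46 in the KO alone, and 90 in the WT alone. Distal KAP1 peaks were acetylated in the KO in 1824 cases, or 20.5% (19.7% to 21.4%), with 1262 in both genotypes, 562 in the KO alone and 153 in the WT alone. The 2 H3K27ac lists hold similar numbers of distal peaks without a counterpart in the other, 7329 in the KO and 7036 in the WT. Of the former, 466 held a KAP1 site, or 6.36% (5.81% to 6.94%), and of the latter 120, or 1.71% (1.42% to 2.04%). Distal H3K27ac peaks with a counterpart held a KAP1 site at 6.45% in the KO list and 6.34% in the WT list. The share of the KO-only peaks was thus near that of the shared peaks, and the share of the WT-only peaks was below it. The KO-only and WT-only peaks were narrower, with median widths of 1245 and 1177 bp. For the shared peaks of the KO and WT lists these were 1838 and 1914.5 bp. In the WT list wider distal peaks held KAP1 more often, and the shares were not adjusted for width. With 1 library per genotype the difference between KO-only and WT-only peaks has no replicate check. Depth, passage and clone cannot be told apart from genotype.

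The AP-1 motif was found in 32.7% of the 562 distal KAP1 sites acetylated in the KO alone (28.9% to 36.8%) and the ZFP57 motif in 11.6% (9.04% to 14.5%), next to the 37.2% and 10.3% of the sites acetylated in the WT. Among the distal KAP1 peaks without acetylation in the WT, 126 of 1581 under WT H3K9me3 were acetylated in the KO, or 7.97% (6.68% to 9.42%), and 436 of 5895 away from it, or 7.40% (6.74% to 8.09%). These intervals overlap.

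From the side of the H3K27ac list, 4587 of 35402 peaks held KAP1, or 12.96% (12.61% to 13.31%). At starts the share was 27.6%, and elsewhere 4.91%. H3K27ac peaks with KAP1 were wider, with median widths of 3098 bp against 2483 bp at starts and 2263 bp against 1612 bp elsewhere. Wider peaks offer more room for an overlap. A large H3K27ac region of 32062 bp on chromosome 19, which covers starts of Neat1, Frmd8 and Gm9783, held 6 KAP1 peaks, of which 5 were also in the SETDB1 list. Neat1 encodes the long RNA that builds paraspeckles. The peaks at Setd1b, which encodes an H3K4 methyltransferase, and at Cirbp, Midn and Atp5d held 4 each and no SETDB1-listed peak. In all, 5 H3K27ac peaks held 4 KAP1 peaks, and these were named for their H3K27ac score.

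Outside starts, KAP1 sites in genes were more often acetylated than those between genes. Of the distal peaks, 6076 were intergenic and 13.8% of them acetylated, 2247 were intronic with 20.2%, and 568 exonic with 21.5%. These shares were not adjusted for the distance to the nearest start, with which acetylation fell. A KAP1 site without a peak may still hold H3K27ac signal under the threshold of the peak caller.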

How the data were processed

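The peak lists were deposited by the authors with a position and a score for each peak (BED column 5). According to the study's methods, reads were mapped to mm9 with Bowtie2 and MACS called the peaks relative to total input, above a score of 80; the submitters' processing notes name Bowtie2 2.2.1 and MACS 1.4. The lowest score was 80 in the Hepa 1.6 lists and 50 in the WT MEF H3K27ac list. Scores reach a ceiling of about 3100, met by 28.1% of H3K27ac peaks, and were used only to rank or divide peaks. Counts of reads were not used, so depth is unknown here.

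KAP1 peaks were shuffled within their chromosome 10000 times, keeping their length and without leaving out assembly gaps, and a one-sided permutation p was taken. This test concerns the position of peaks in these libraries. The step was tested on simulated data of 13143 peaks with 400 peaks moved onto H3K27ac: 10 of 10 lists with an excess passed, and 1 of 10 without. The simulated peaks were otherwise placed at random within the chromosome, as in the shuffles. The clustering of real peaks was thus not part of that trial. The count of 4915 acetylated peaks was also obtained with bedtools 2.31.1. Other comparisons are shares without a test. Starts of genes came from the GENCODE annotation of mm9, and sequences from the mm9 assembly.

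The classes, gene lists and motifs were chosen with earlier results of these data known. Regions named were up to 5 KAP1 peaks of the highest scores in each class, ties taken in chromosome order, and the 3 H3K27ac peaks with the most KAP1 peaks, ties taken by H3K27ac score, and genes named were up to 8 per list by KAP1 score, with Zrsr1 added since it shares their score, and members of counts of 5 or fewer were named after values were seen. For the printed sequences, peaks on chromosome 18 were left out by rule. Windows with an annotated UTR were also passed over, which the rule had not foreseen. The highest proximal acetylated peak and its sequence are not reported here. In the gene lists, Spi1, Zim2, Kcnq1ot1, Peg13, Suv39h1 and Atrx were not matched among autosomal genes. Tables were handled with pandas 2.3.3 and numpy 2.4.6 in Python 3.11.15, intervals computed with scipy 1.17.1, shuffles run with numba 0.67.0, sequences read with pysam 0.24.0 and plots drawn with matplotlib 3.10.9. Libraries of ES cells and liver, inputs and RNA-seq were not analysed here.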

Additional observations from a re-analysis of the deposited data

How the results depend on the processing

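The overlaps of all, proximal and distal KAP1 peaks kept their direction and a permutation p of 0.0001 under each of the 12, 15 and 16 alternatives run. The fold ranged from 5.34 to 10.2 for all peaks, from 10.7 to 23.4 for proximal and from 2.62 to 4.67 for distal peaks. The lowest folds came from accepting H3K27ac within 1 kb, and the highest from the 50% of H3K27ac peaks with the highest scores for all and proximal peaks, and, for distal peaks, from shuffles kept away from starts. The distal share ranged from 10.4% with those top H3K27ac peaks to 20.5% with the Kap1 KO list, and the proximal share from 68.5% with starts reaching 5 kb to 86.4% without the SETDB1-listed peaks. The removal of peaks with a B box motif or with scores of at least 1000 was chosen after seeing the data. The excess was found on 19 chromosomes with the top 50% of KAP1 peaks and on 18 with distal peaks alone. No paired analysis was possible because each list of this comparison came from 1 library. Leaving out a replicate was not possible for the same reason. Since only called peaks were used, weak sites of either cell type are missed, and their number is unknown.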

Other observations

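Among H3K27ac peaks away from starts, ranked by width in 4 groups of nearly equal size, 1.93% of those up to 1141 bp wide and 9.21% of those of at least 2345 bp held KAP1, and the number of KAP1 overlaps per Mb of H3K27ac was 20.9, 23.2, 28.8 and 28.0 in these groups. In 4 KAP1 peaks, at least 10% of the 31-base words were also found in the mitochondrial genome, and 0 of the 4 were acetylated. This search was added after the Gm10222 peak had been seen.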
